A study of Mus musculus with 4 samples.

Results

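The 10 genes Stab1, Stab2, Lyve1, Mrc1, Clec4g, Fcgr2b, Msr1, Marco, Clec4f and Timd4, of 32285 mouse genes counted, encode scavenger and endocytic receptors of the cells in the liver sinusoids. They were listed by name, not by their values, and all 10 were found in the data. Nuclei from frozen livers of Bl/6 mice were sequenced in 4 libraries, 1 for each group. By their labels, 2 libraries came from mice on CD and 2 from mice on a low-protein diet (LPD), begun 1 week before a tail vein injection and kept for 2 weeks after it. In each diet 1 library is labelled oncogene (spelled concogene there) and 1 control. The oncogene plasmids carried c-Met and β-catenin, which the study's constructs drive from the EF1α promoter, for insertion by Sleeping Beauty transposase after hydrodynamic injection, a route that reaches mainly hepatocytes. Controls received vector by the study's text, whose methods give young adult male mice unless stated otherwise, and how many mice made up a library is not given in the sources used here. With 1 library per group, no difference between groups has a replicate check and no test was made.

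Liver sinusoidal endothelial cells form a fenestrated lining and take up soluble waste from blood, such as hyaluronan, collagen fragments and modified lipoproteins, by receptor-mediated endocytosis. Kupffer cells, the resident macrophages of the sinusoids, take up particles, bacteria and dying cells. Their receptors each bind broad classes of ligands, and several serve as markers of these cells.

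The libraries stood apart from each other before any receptor was looked at. UMIs (unique molecular identifiers, 1 per captured RNA molecule) of the transgenes numbered 100 in the library labelled CD control, 0 in CD oncogene, 0 in LPD control and 6 in LPD oncogene, so these counts go against the labels of the CD pair. After the filter on nuclei, 10397 were left in the library labelled CD control and 12552 in CD oncogene. The study's text puts more nuclei in its CD control than in its CD oncogene group, the opposite order, while the order of the LPD pair is the same in both. Both the transgenes and the nuclei are as they would be with the CD labels exchanged. The groups were kept as labelled, so each CD direction between oncogene and control below would turn with the labels. Values are given below in this order of libraries. Median depth per nucleus was 3807, 3294, 1962 and 1762 UMIs, and the median mitochondrial share was 2.42%, 0.983%, 0.100% and 0.127%. Pairs of libraries shared 18 to 40 barcodes, at most 0.362% of the smaller library. Types were given by marker genes, none of them among the 10 receptors, and the gate also required a share of hepatocyte RNA under 50% of the library's median. That limit removed 84.0%, 84.1%, 44.4% and 27.1% of the nuclei that passed the Kupffer gate alone, and 91.6%, 94.3%, 44.6% and 33.7% of those that passed the endothelial gate alone. It left 56, 34, 275 and 543 sinusoidal endothelial and 23, 28, 154 and 457 Kupffer nuclei. Clusters made within each library without the 10 receptors, and without that limit, held 419, 744, 636 and 863 sinusoidal endothelial and 276, 364, 345 and 923 Kupffer nuclei.

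Promoters are shown for Timd4 and Marco, receptors of Kupffer nuclei, and for Stab1 and Clec4g, receptors of endothelial nuclei, so that the sequences before genes of both cell types can be compared. Each is the 250 bases before the RefSeq start on GRCm38.p6, written 5′ to 3′ on the strand of the gene. Capitals mark GAGGAA and TGCTGA on either strand (TTCCTC and TCAGCA on the other strand). GAGGAA is a longer form of GGAA, the core of ETS factor sites, and TGCTGA is the core of MAF factor sites. GGAA outside GAGGAA was not marked or counted.

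Timd4 (chr11:46810549-46810798, plus strand): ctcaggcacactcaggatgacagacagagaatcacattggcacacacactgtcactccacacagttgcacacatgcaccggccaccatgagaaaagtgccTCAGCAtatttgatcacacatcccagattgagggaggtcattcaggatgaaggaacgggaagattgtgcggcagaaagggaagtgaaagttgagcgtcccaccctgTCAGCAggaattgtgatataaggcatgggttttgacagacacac

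Marco (chr1:120505025-120505274, minus strand): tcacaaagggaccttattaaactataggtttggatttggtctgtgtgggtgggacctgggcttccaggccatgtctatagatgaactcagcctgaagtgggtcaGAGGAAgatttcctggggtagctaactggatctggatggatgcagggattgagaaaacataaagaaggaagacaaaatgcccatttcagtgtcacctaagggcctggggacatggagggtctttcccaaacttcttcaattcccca

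Stab1 (chr14:31168642-31168891, minus strand): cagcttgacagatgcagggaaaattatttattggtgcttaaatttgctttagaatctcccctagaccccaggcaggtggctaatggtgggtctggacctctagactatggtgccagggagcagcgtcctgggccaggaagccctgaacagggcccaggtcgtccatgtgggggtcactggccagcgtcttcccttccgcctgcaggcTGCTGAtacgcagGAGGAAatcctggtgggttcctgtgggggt

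Clec4g (chr8:3720652-3720901, minus strand): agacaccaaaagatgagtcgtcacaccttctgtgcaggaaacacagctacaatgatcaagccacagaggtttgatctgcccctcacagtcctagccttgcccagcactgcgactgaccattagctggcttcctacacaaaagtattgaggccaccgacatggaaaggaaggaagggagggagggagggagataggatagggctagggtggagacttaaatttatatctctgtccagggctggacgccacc

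RefSeq promoters were found for 8 of the 10 receptors. GAGGAA was in 3 of the 8 and in 23.3% of all 32817 windows of this length. The MAF core was in 3 of the 8 and in 16.1% of all windows. The letters AGATAA or, on the other strand, TTATCT, known as a binding site of GATA factors, were in 0 of the 8 and in 9.99% of all windows. Timd4 held 2 MAF cores, Marco 1 GAGGAA and Stab1 1 of each, and Clec4g held 0 of either. A match describes the letters only.

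Stab2, an endocytic receptor for hyaluronan (ENSMUSG00000035459, chr10:86841198-87008025 on GRCm38, minus strand), was detected in most sinusoidal endothelial nuclei. Its level there, in CPM (receptor UMIs scaled to 1e+06 mouse UMIs summed over the nuclei of a type), was 1505, 687, 5499 and 7176, with both libraries labelled LPD above both labelled CD. A Stab2 UMI was found in 85.7%, 58.8%, 92.4% and 97.0% of these nuclei, and in 62.5%, 41.2%, 86.2% and 91.3% after each nucleus was thinned to 500 UMIs. In hepatocyte nuclei, which should lack the receptor, the thinned share was 0.671% to 2.33% and the level 11.4 to 25.1 CPM. Median depth was 2226 to 4337 UMIs in hepatocyte nuclei and 795 to 2864 in sinusoidal endothelial nuclei. Kupffer nuclei held Stab2 at 122, 258, 195 and 215 CPM, below each endothelial level and above each hepatocyte level. Free RNA from endothelial nuclei in Kupffer droplets was not tested as a part of that level. Exons cover 5.25% of the gene's 166.8 kb, and 5 annotated genes overlap it on the opposite strand. Whether the counting used introns or strand is not given in the sources used here.

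Stab1, the paralog of Stab2 (ENSMUSG00000042286, chr14:31139013-31168641, minus strand), takes up modified proteins in both endothelium and macrophages. It stood at 122, 110, 765 and 790 CPM in sinusoidal endothelial nuclei and at 55.4, 49.2, 118 and 135 CPM in Kupffer nuclei. The order of the types was thus the same in each library, and each Kupffer level was above the 2.56 to 6.36 CPM of hepatocyte nuclei. In the LPD libraries, which held 99 and 154 gated vascular endothelial nuclei, Stab1 stood at 503 and 596 CPM in those nuclei, and the CD libraries held 9 and 5 such nuclei, too few for a level by gate. Vascular clusters held 221, 80, 98 and 109 nuclei, with Stab1 at 318, 179, 394 and 412 CPM. Stab2 was at 1263 and 2731 CPM in the LPD vascular nuclei by gate, and at 2285, 303, 44.7 and 297 CPM in the vascular clusters. The vascular level of Stab2 thus depends on how these nuclei were taken, though in each library it was below the sinusoidal level by either way.

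Clec4g, a C-type lectin of sinusoidal endothelium also called LSECtin (ENSMUSG00000074491, chr8:3707064-3720651, minus strand), stood at 105, 20.3, 378 and 483 CPM in sinusoidal endothelial nuclei. Kupffer nuclei gave 0, 0, 2 and 0 Clec4g UMIs in all. Fcgr2b, the inhibitory Fc receptor that clears small immune complexes in endothelium (ENSMUSG00000026656, chr1:170958617-170976547, minus strand), stood at 115, 20.3, 483 and 355 CPM in sinusoidal endothelial nuclei, with 0, 0, 1 and 5 UMIs in Kupffer nuclei. The gated counts of 0 come from 23 and 28 nuclei. In Kupffer clusters Clec4g gave 40, 20, 4 and 4 UMIs (32.0, 16.6, 10.2 and 3.18 CPM) and Fcgr2b 23, 13, 3 and 5 (18.4, 10.8, 7.62 and 3.98 CPM), each below the level in endothelial clusters of the same library. The gated endothelial level in CD oncogene rests on 5 UMIs of each gene. B nuclei, where Fcgr2b is the known Fc receptor, gave 3 and 9 Fcgr2b UMIs in the LPD libraries, at 44.8 and 62.1 CPM. Fcgr2b lies near related Fc receptor genes, and how reads shared between them were counted is not given here.

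Lyve1, a hyaluronan receptor of lymphatic and sinusoidal endothelium (ENSMUSG00000030787, chr7:110850607-110863239, minus strand), was sparse. Sinusoidal endothelial nuclei gave 0, 3, 12 and 34 UMIs, or 0, 12.2, 48.3 and 66.0 CPM, and the count of 0 allows up to 0.298 UMIs per 100 UMIs of the endothelial marker lists. Kupffer nuclei gave 0, 1, 0 and 1 UMIs. Over all nuclei with no gate, Lyve1 gave 33, 87, 34 and 79 UMIs, or 0.484, 2.48, 1.09 and 1.20 per 100 Stab2 UMIs. This ratio was thus the highest in CD oncogene, 5.13-fold CD control (95% counting interval 3.39 to 7.92), and the LPD pair differed by 1.10-fold (0.722 to 1.69). Over all nuclei Lyve1 stood at 0.625, 1.42, 1.46 and 3.41 CPM, and Stab2 at 129, 57.2, 134 and 285 CPM. The CD fold thus joins a higher Lyve1 and a lower Stab2 level in CD oncogene. Sinusoidal endothelial clusters held Lyve1 at 16.6 to 67.5 CPM, with CD oncogene the lowest. In CD oncogene 33 of the 87 UMIs lay in hepatocyte clusters, beside 7 of 33, 2 of 34 and 5 of 79 in CD control, LPD control and LPD oncogene, and the part of free RNA in the ratio was not tested.

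Mrc1, the mannose receptor (ENSMUSG00000026712, chr2:14229392-14332057, plus strand), was found in both types. It stood at 412, 191, 1107 and 1514 CPM in sinusoidal endothelial and at 665, 775, 1070 and 1393 CPM in Kupffer nuclei. By gate the 2 types had nearly the same level in the LPD libraries, and the Kupffer level was the higher in the CD libraries. By clusters the CD control library turned, with 1227 CPM in sinusoidal endothelial and 378 CPM in Kupffer nuclei. Msr1, the class A scavenger receptor for modified lipoproteins (ENSMUSG00000025044, chr8:39581685-39642673, minus strand), stood at 65.9, 89.5, 225 and 283 CPM in sinusoidal endothelial and at 521, 172, 485 and 502 CPM in Kupffer nuclei. The Kupffer level was the higher in each library by gate. By clusters this library turned for Msr1 too, with 265 CPM in sinusoidal endothelial and 159 CPM in Kupffer nuclei.

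Clec4f, a lectin made in mice by Kupffer cells (ENSMUSG00000014542, chr6:83644542-83656187, minus strand), stood at 1153, 492, 1732 and 1322 CPM in Kupffer nuclei. Sinusoidal endothelial nuclei held it at 3.29 to 19.4 CPM and hepatocyte nuclei at 2.42 to 15.3 CPM, so the endothelial level was about that of hepatocytes. Timd4, a phosphatidylserine receptor for dying cells kept by long-lived resident macrophages (ENSMUSG00000055546, chr11:46810800-46844332, plus strand), stood at 410, 197, 408 and 585 CPM in Kupffer nuclei and at 0 to 5.82 CPM in sinusoidal endothelial nuclei. Marco, a scavenger receptor for bacteria and particles (ENSMUSG00000026390, chr1:120474538-120505024, minus strand), gave 0, 18, 0 and 107 UMIs in Kupffer nuclei, or 221 CPM in CD oncogene and 190 CPM in LPD oncogene.

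**Figure D1:**
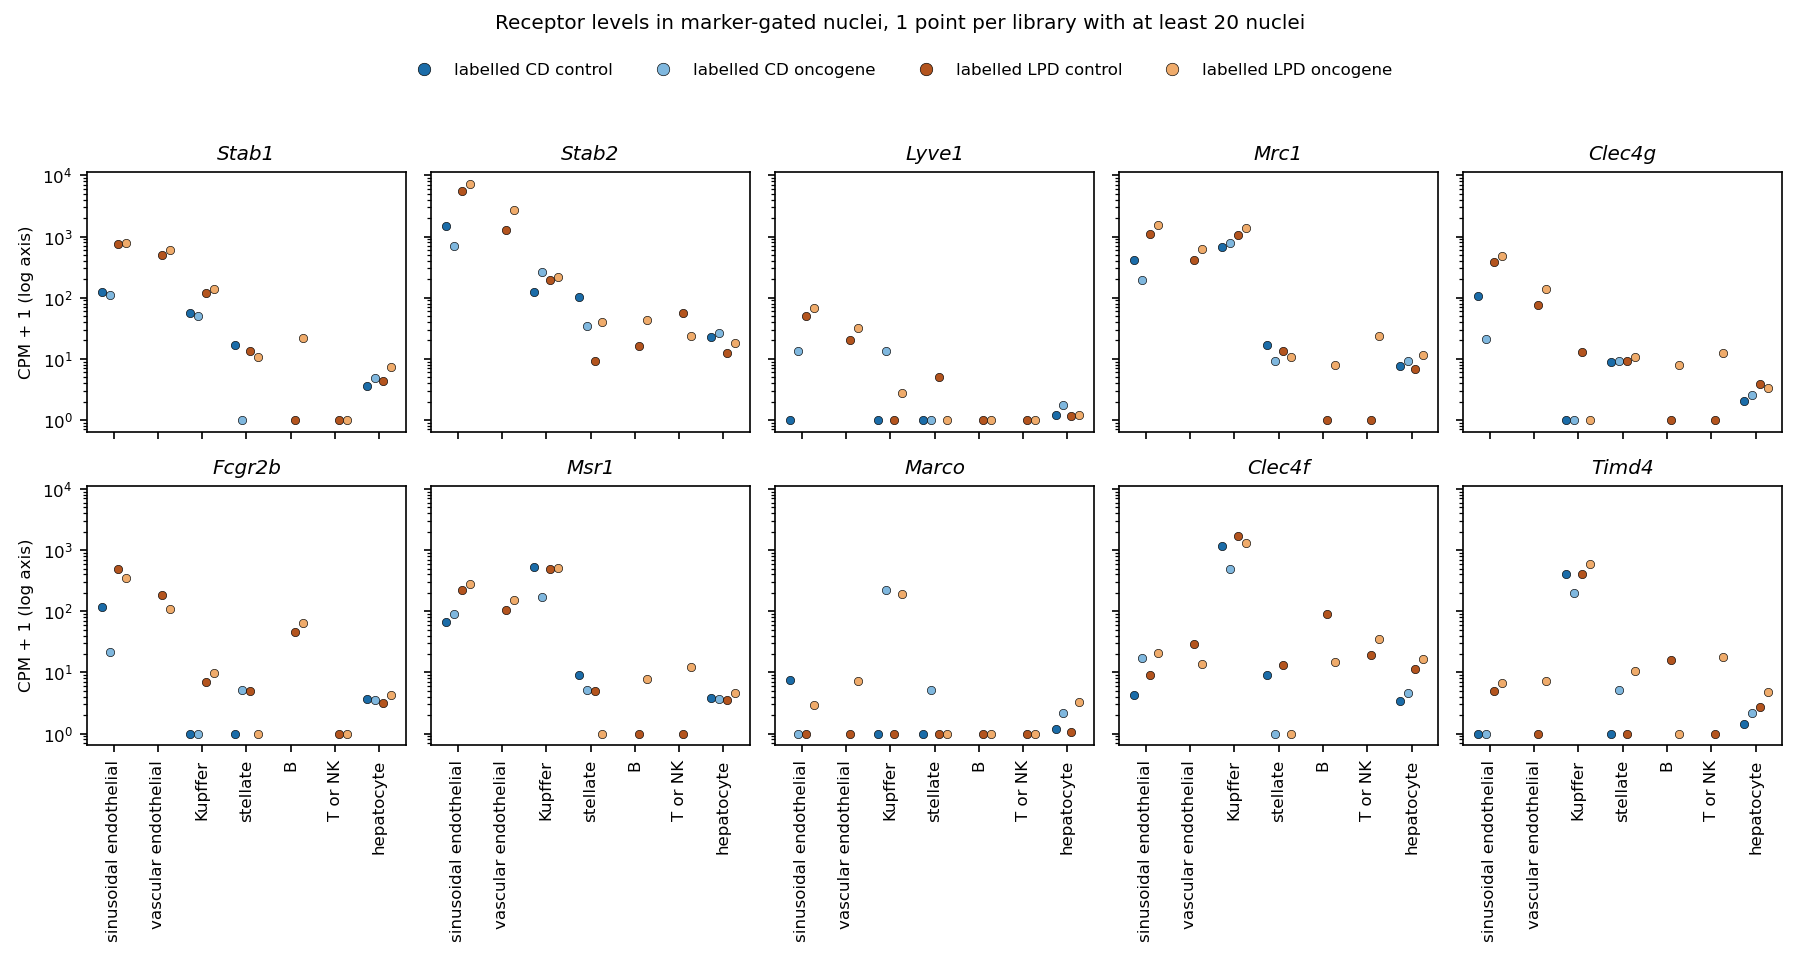
Level of each receptor (CPM + 1, log axis) in marker-gated nuclei of each type, 1 point per library with at least 20 nuclei, coloured by library label. The Kupffer points of Clec4f and Timd4 lie above those of each other type, Mrc1 and Msr1 are high in both sinusoidal types, and Marco is high in Kupffer nuclei of the 2 libraries labelled oncogene.

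Ordered by the median over libraries with at least 20 nuclei of a type, 4 receptors were highest in sinusoidal endothelial nuclei (Stab2, Lyve1, Clec4g, Fcgr2b) and 5 in Kupffer nuclei (Mrc1, Msr1, Marco, Clec4f, Timd4). Stab1 was highest in vascular endothelial nuclei, where only the LPD libraries counted. By clusters, where all 4 libraries counted for both, Stab1 (480 CPM against 356 in vascular nuclei) and Mrc1 (1005 CPM against 678 in Kupffer nuclei) were highest in sinusoidal endothelial nuclei instead. The Kupffer ranges of Clec4f and Timd4 lay above the range of each other type. The ranges of the 2 endothelial types overlapped for Stab1, Stab2, Lyve1, Clec4g and Fcgr2b, and those of sinusoidal endothelial and Kupffer nuclei overlapped for Mrc1 and Msr1. The Marco range in Kupffer nuclei began at 0 and so overlapped that of other types.

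The ratio of sinusoidal endothelial to Kupffer nuclei within a library does not rest on the labels. Depth differed between the types, most in CD oncogene, with a median of 2864 UMIs in sinusoidal endothelial and 1684 in Kupffer nuclei. On the scale log2(CPM + 5), the difference was 3.69 ± 1.66 (SD over 4 libraries) for Stab2, 4.48 ± 1.74 for Clec4g, 4.28 ± 1.35 for Fcgr2b and 1.82 ± 0.87 for Stab1. On that scale these 4 were at least 2-fold higher in sinusoidal endothelial nuclei in all 4 libraries, as were 4.06% of the 6869 genes compared. For Clec4g and Fcgr2b in CD oncogene the value of 2.34 is set by the added 5 CPM, since 0 Kupffer UMIs allow up to 36.9 CPM there, above the endothelial 20.3 CPM. Clec4f (-6.12 ± 1.22) and Timd4 (-5.75 ± 0.45) were at least 2-fold higher in Kupffer nuclei in all 4 libraries, as were 7.37% of the genes compared. The other 4 were not past 2-fold one way throughout. Lyve1 gave 0.00, -0.01, 3.41 and 3.39, where the 2 CD values rest on 0 to 3 UMIs. Mrc1 gave -0.69, -1.99, 0.05 and 0.12, Msr1 gave -2.89, -0.91, -1.09 and -0.81, and Marco gave 1.21, -5.50, 0.00 and -4.81. Clec4g and Fcgr2b passed the filter on low values (at least 20 CPM and 50 UMIs) only through endothelial nuclei, where they were the higher. Clec4f and Timd4 passed it only through Kupffer nuclei, where they were the higher. For these receptors, that they passed and that they differed are not separate facts.

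**Figure D2:**
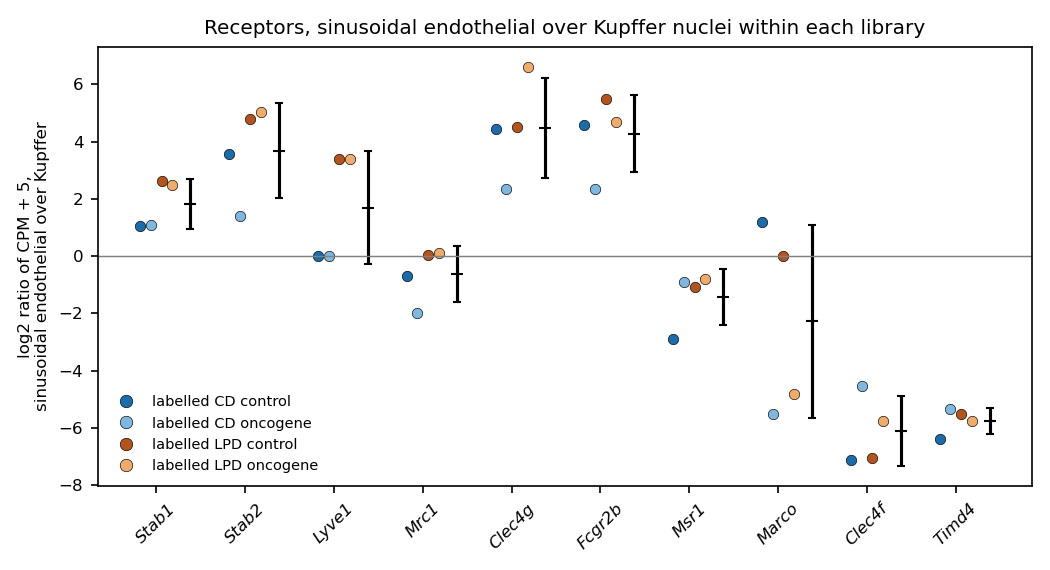
Difference of sinusoidal endothelial and Kupffer nuclei within each library, as log2 ratio of CPM + 5, for each receptor; points are libraries and the black bar is the mean ± SD over 4 libraries. Stab2, Clec4g and Fcgr2b lie above 0 and Clec4f and Timd4 below 0 in each library, and Mrc1 lies on both sides.

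Other receptors were grouped by function and read against the same shares of all genes, 7.37% higher in Kupffer and 4.06% in sinusoidal endothelial nuclei. Of the 9 Fc and complement receptors, 5 passed the filter on low values, and 4 were at least 2-fold higher in Kupffer nuclei in all 4 libraries and 0 in sinusoidal endothelial nuclei. These were Fcgr3 and Fcgr4, activating Fc receptors, Fcer1g, their signalling chain, and Itgb2, an integrin subunit. Fcer1g and Fcgr4 had the highest mean levels of this list in Kupffer nuclei, at 103 and 60.8 CPM, and Fcgrt, the neonatal Fc receptor, in sinusoidal endothelial nuclei, at 96.1 CPM against 50.6 CPM in Kupffer nuclei. Of the 6 of 8 efferocytosis genes that passed, 2 were higher in Kupffer nuclei (Axl at 269 CPM on average, Cd300lf at 129 CPM) and 1 in sinusoidal endothelial nuclei (Gas6, a bridging ligand, at 44.1 CPM). Pros1, another bridging ligand, had a mean of 237 CPM in sinusoidal endothelial nuclei. Mertk, the main receptor of that pathway in macrophages, had a mean of 1659 CPM in Kupffer and 697 CPM in sinusoidal endothelial nuclei. Of the 8 of 16 other scavenger receptors that passed, Cd163, the haemoglobin receptor, was the 1 higher in Kupffer nuclei, at 213 CPM against 2.02 CPM. Colec12 and Scarb2 had the highest mean levels of that list in sinusoidal endothelial nuclei, at 431 and 262 CPM, and Lrp1 and Colec12 in Kupffer nuclei, at 701 and 295 CPM. Of the 4 of 11 other lectins that passed, Clec14a was higher in sinusoidal endothelial nuclei, with a mean of 42.7 CPM and 0 in Kupffer nuclei. Clec9a and Clec1b had the highest mean levels of the lectins in both types, at 89.4 and 52.4 CPM in sinusoidal endothelial and 136 and 115 CPM in Kupffer nuclei. Clec7a was not analysed here. Of the 9 clathrin and endosome adaptors, all 9 passed and 0 were past 2-fold one way in all 4 libraries. Dab2 stood at 516 and Picalm at 285 CPM in sinusoidal endothelial nuclei, and at 370 and 519 CPM in Kupffer nuclei. Each gene of these lists called higher in 1 type reached 20 CPM only there. That it passed the filter and that it differed are therefore not separate facts.

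The comparison of LPD with CD asks whether the diet goes with another receptor level in either cell type. In sinusoidal endothelial nuclei 6 of the 10 receptors passed the filter on low values, and all 6 of these were past 2-fold higher in the libraries labelled LPD in each of the 4 pairs of libraries, beside 30% of the 4823 genes compared that were past 2-fold either way. The log2 differences of the 4 pairs were 2.60 to 2.79 for Stab1, 1.87 to 3.37 for Stab2, 1.42 to 2.95 for Mrc1, 1.80 to 4.27 for Clec4g, 1.58 to 4.27 for Fcgr2b and 1.29 to 2.02 for Msr1. Their median was 2.66, and that of all genes compared 0.15. Clec4g, Fcgr2b and Msr1 passed the filter only through the LPD libraries, where they were the higher, so that they passed and that they differed are not separate facts, and the count and the median include them. Of the wider lists, 4 of 9 adaptors, 3 of 4 lectins, 1 of 4 efferocytosis genes and 1 of 7 other scavenger receptors were past 2-fold higher in LPD, and 3 of these 7 scavenger receptors past 2-fold lower. The lectins Clec1b and Clec14a reached 20 CPM only in the LPD libraries, where they were the higher. Which other genes of these counts passed only through the libraries where they were the higher is not given here. These counts are therefore not separate from the filter. In UMIs per nucleus, 0 of these 6 receptors were higher in both LPD than in both CD libraries. Stab1 gave 0.661, 0.794, 0.691 and 0.750 UMIs per nucleus and was found in 44.6%, 47.1%, 48.0% and 47.9% of nuclei. Stab2 gave 8.16, 4.97, 4.97 and 6.81 UMIs per nucleus and Msr1 0.357, 0.647, 0.204 and 0.269, at the greater depth of the CD nuclei. Diet and the quality of a library cannot be told apart. The hepatocyte marker list took 0.550%, 0.586%, 0.318% and 0.311% of the UMIs of these nuclei, and the endothelial marker lists themselves took 3316, 1899, 14600 and 16730 CPM. The part of either in the differences was not tested.

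A scale of UMIs per 100 UMIs of the endothelial marker lists, added after the CPM were seen, gave other values. Stab2 stood at 45.4, 36.2, 37.7 and 42.9 per 100, Stab1 at 3.67, 5.78, 5.24 and 4.72, and Mrc1 at 12.4, 10.1, 7.58 and 9.05. The CD libraries lay on either side of the LPD values for Stab2 and Stab1, and above both for Mrc1. Clec4g stood at 3.18, 1.07, 2.59 and 2.89, Fcgr2b at 3.48, 1.07, 3.31 and 2.12, and Msr1 at 1.99, 4.71, 1.54 and 1.69. On this scale 0 of the receptors were past 2-fold in all 4 pairs, beside 74.5% of the genes compared, nearly all of them lower in LPD. The median log2 difference was 0.05 for the receptors and -2.32 for all genes. By clusters, on the CPM scale, 0 receptors were past 2-fold in all 4 pairs, beside 1.70% of 8127 genes. Stab2 was at 5253, 889, 3420 and 6394 CPM, so that CD control lay above LPD control. The hepatocyte marker list took 1.12%, 1.21%, 0.983% and 0.611% of the UMIs of these clusters, more than of the gated nuclei in each library. Its part in the cluster levels was not tested.

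**Figure D3:**
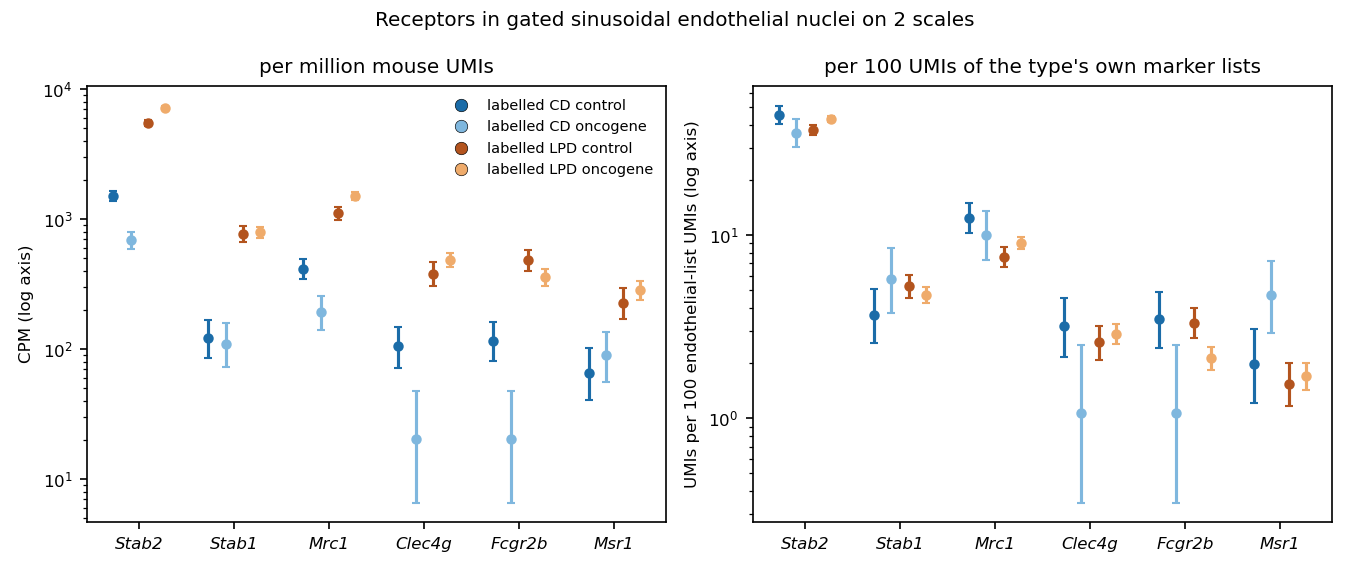
The 6 receptors in gated sinusoidal endothelial nuclei as CPM (left) and as UMIs per 100 UMIs of the endothelial marker lists (right), both on log axes, 1 point per library with its 95% counting interval. The libraries labelled LPD lie above those labelled CD on the left, while Stab2 lies between 36.2 and 45.4 in the 4 libraries on the right.

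In Kupffer nuclei, 1 of the 7 receptors that passed the filter, Stab1, was past 2-fold higher in LPD in the 4 pairs (log2 differences of 1.03 to 1.37), beside 9.49% of the 3824 genes compared that were past 2-fold either way. This call rests on 5 and 4 Stab1 UMIs in the CD libraries, and the gene passed the filter only through the LPD libraries, where it was the higher. Per 100 UMIs of the Kupffer marker list 0 receptors were past 2-fold, beside 11.2% of the genes, with Stab1 at 1.65, 1.89, 2.45 and 2.82. By clusters, 4 receptors were past 2-fold higher in LPD in the 4 pairs, and the share of all genes is not given here. Mrc1 was among them, at 378, 316, 978 and 1016 CPM. Stab1 was not, at 60.9, 59.95, 109 and 123 CPM. The hepatocyte marker list took 1.02%, 1.12%, 0.633% and 0.965% of the UMIs of these clusters.

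The comparison of the libraries labelled oncogene and control was made within each diet. On LPD, 0 of the 6 receptors that passed in sinusoidal endothelial nuclei were past 2-fold, beside 4.54% of 3129 genes. Stab2 was 0.38 higher on the log2 scale in LPD oncogene (95% counting interval 0.29 to 0.48) and Fcgr2b was 0.44 lower (difference of -0.44, interval -0.78 to -0.10). In Kupffer nuclei on LPD, 1 of 7 receptors was past 2-fold, Marco, beside 3.63% of 3198 genes. With 0 UMIs in LPD control it could pass the filter only through LPD oncogene, so the filter fixed this call. On CD, 2 of the 3 receptors that passed in sinusoidal endothelial nuclei, Stab2 (-1.13) and Mrc1 (-1.09), were past 2-fold lower in the library labelled CD oncogene, beside 9.33% of 2433 genes. In Kupffer nuclei on CD, Msr1 (-1.57), Clec4f (-1.22) and Timd4 (-1.04) of 4 that passed were past 2-fold lower, beside 13.2% of 605 genes. Mrc1 (125 UMIs in CD control, 47 in CD oncogene) and Clec4f (104 and 40) passed the limit of 50 UMIs only through CD control. They were the higher there, so that they passed and that they differed are not separate facts. Msr1 (47 and 14 UMIs) and Timd4 (37 and 16) passed it only by the sum of the pair. With nuclei of at least 500 genes and at most 5% mitochondrial UMIs, Timd4 turned, to 0.19. These CD values rest on 23 to 56 nuclei a library (13 and 18 for the stricter Timd4 value) and on labels that the transgene counts go against.

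Marco was higher in the libraries labelled oncogene on both diets, though the CD direction would turn with the CD labels. In Kupffer nuclei it gave 107 UMIs in 70 of 457 nuclei (15.3%) in LPD oncogene and 0 in 154 nuclei in LPD control, which allows a share of up to 1.95%. Against the 3 UMIs that a count of 0 allows, the level in LPD oncogene was 10.7-fold higher, without the counting error of the 107 UMIs. The 95% counting interval of the log2 ratio began at 3.1. In CD oncogene it gave 18 UMIs in 7 of 28 nuclei (25%), and in CD control 0 in 23 nuclei. Taken in the same way, the level in CD oncogene was 6.66-fold higher, and the log2 interval began at 2.29. With under 50 UMIs this pair did not pass the filter. Over all nuclei and with no gate, Marco UMIs numbered 28, 128, 10 and 223, which is 3.76, 22.0, 1.21 and 13.8 per 100 Clec4f UMIs. The fold of that ratio was 11.4 (95% counting interval 6.04 to 24.2) on LPD and 5.84 (3.79 to 9.26) on CD, in both cases library labelled oncogene over library labelled control. Hepatocyte nuclei, which should lack the receptor, gave 7, 59, 1 and 41 Marco UMIs by gate, at 0.168, 1.21, 0.0496 and 2.23 CPM, so the libraries with more Marco in Kupffer nuclei also had more there. Kupffer clusters held 60.7%, 57.8%, 50% and 78.5% of the Marco UMIs, and in these clusters the ratio was 2.67, 17.1, 0.824 and 13.2 per 100. Of the libraries with transgene UMIs, CD control lay on the lower and LPD oncogene on the higher side.

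In LPD oncogene, the shares with other Kupffer receptors were close in nuclei with a Marco UMI and in all Kupffer nuclei. Of the 70 with Marco nuclei 28 also held a Timd4 UMI (40.0%, 95% exact binomial interval 28.5 to 52.4%), beside 40.5% of all 457, and 46 held a Clec4f UMI (65.7%, 53.4 to 76.7%), beside 72.9% of all.

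Timd4 was found in 11 of 19, 11 of 17, 38 of 109 and 147 of 333 Kupffer nuclei with a Clec4f UMI, or 57.9%, 64.7%, 34.9% and 44.1%. The exact binomial intervals were 33.5 to 79.7%, 38.3 to 85.8%, 26.0 to 44.6% and 38.7 to 49.7%, so those of the 4 libraries overlapped. Thinned to 500 UMIs the shares were 38.5%, 17.6% and 26.3% in CD control, LPD control and LPD oncogene, and CD oncogene was left with under 10 nuclei with Clec4f. The summed UMIs of Timd4 per 100 of Clec4f were 35.6, 40.0, 23.6 and 44.3 by gate and 28.6, 33.5, 23.0 and 38.9 over all nuclei. Over all nuclei the ratio in LPD oncogene was 1.69-fold that in LPD control (1.40 to 2.04), and that in CD oncogene was 1.17-fold that in CD control (0.931 to 1.47).

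**Figure D4:**
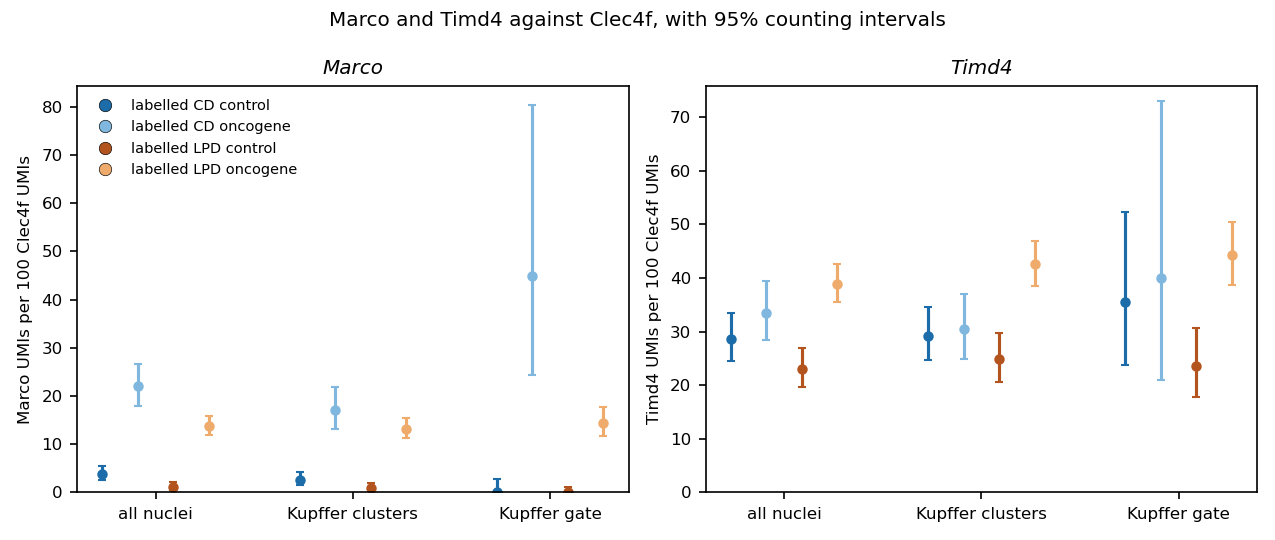
UMIs of Marco (left) and Timd4 (right) per 100 Clec4f UMIs over all nuclei, in Kupffer clusters and in gated Kupffer nuclei, 1 point per library with its 95% counting interval. Marco is higher in the 2 libraries labelled oncogene by each way of taking the nuclei, and Timd4 lies between 23.0 and 44.3.

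Sinusoidal endothelial nuclei were split by pericentral markers (such as Wnt2 and Rspo3) and periportal markers (such as Dll4 and Efnb2), which hold no receptor of the list. By gate, 3 libraries had at least 10 nuclei in both zones, and 0 of the 10 receptors were past 2-fold in all 3, beside 0.325% of 2462 genes. Msr1 stood at 117, 121 and 104 CPM in pericentral and at 119, 290 and 500 CPM in periportal nuclei of CD control, LPD control and LPD oncogene, a mean log2 difference of -1.16 ± 1.10. CD oncogene went the other way, at 964 CPM in pericentral and 161 CPM in periportal nuclei, with 3 pericentral nuclei and 7 UMIs, too few to be compared. By clusters all 4 libraries could be split, with Msr1 at 151, 30.2, 76.2 and 76.6 CPM in pericentral and at 426, 96.7, 254 and 462 CPM in periportal nuclei. The periportal level was the higher in each library, the mean log2 difference was -1.80 ± 0.49, and Msr1 was the 1 receptor past 2-fold in all 4, beside 0.177% of 6769 genes. Stab2 stood at 0.11 ± 0.06 on the log2 scale in the clusters, and Stab1 ran from -0.70 to 0.40 over the libraries. By gate the libraries ran from 0.31 to 1.00 for Stab2 and from -0.09 to 1.59 for Stab1.

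**Figure D5:**
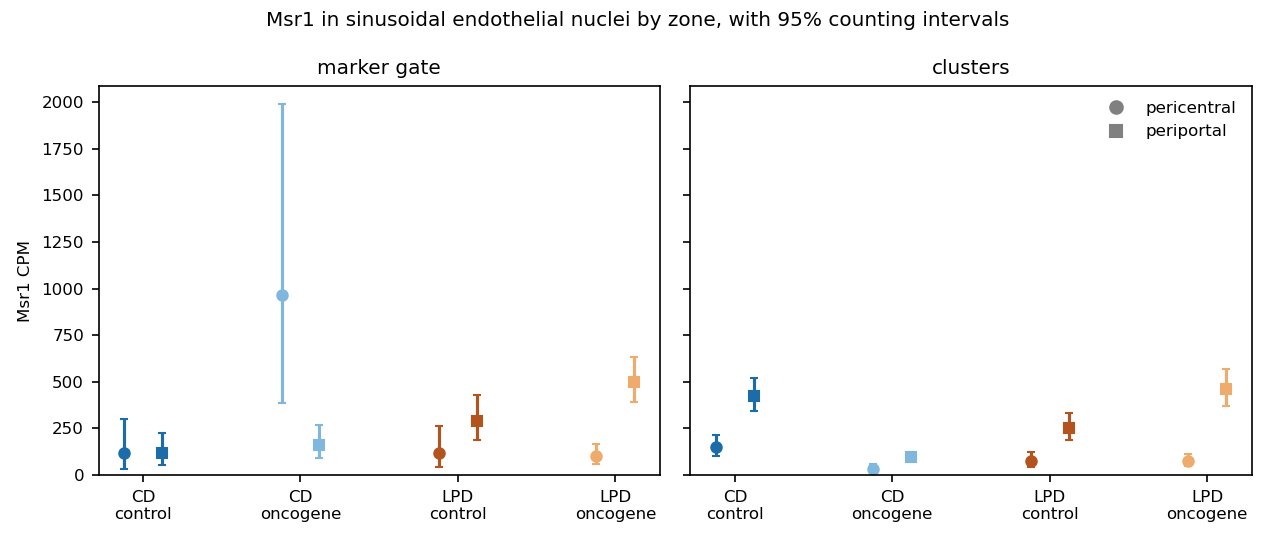
Level of Msr1 (CPM) in pericentral (circles) and periportal (squares) sinusoidal endothelial nuclei of each library, by marker gate (left) and by clusters (right), with 95% counting intervals. By clusters the periportal level lies above the pericentral level in each library, and by gate it does so in both libraries labelled LPD, with the CD oncogene circle resting on 3 nuclei.

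Genes were ranked over 33 pools of 1 type in 1 library with at least 20000 UMIs. The marker genes that gave the types were left out, so their likeness to the receptors was not ranked. Among the genes ranked, the one whose level was most like that of Mrc1 was Msr1 (Pearson's r of log2(CPM + 5) 0.963), and the gene most like Msr1 was Mrc1. The next for both was Anapc15 (0.947 and 0.934), followed by Il1a for Mrc1 (0.918) and Cdh5 for Msr1 (0.906). For Timd4 the genes were Mmp27 (0.969), Cd163 (0.968) and Slc1a3 (0.963), and for Clec4f they were Hk3 (0.934), Kcnj16 (0.925) and B430306N03Rik (0.925). For Clec4g they included Fgd5 (0.945) and Col13a1 (0.944), and for Stab2 Ushbp1 (0.879), Fgd5 (0.877) and Adgrf5 (0.862). Stab1 was most like Cdh5 (0.885), Npl (0.878) and Tmcc2 (0.865), Fcgr2b like Btnl9 (0.836), Rasip1 (0.836) and Cbfa2t3 (0.820), and Lyve1 like Tmem132e (0.883), Grasp (0.873) and Afap1l1 (0.866). Marco was most like 9230112E08Rik (0.836), Gm29856 (0.811) and Dpp6 (0.792). These values describe 14210 genes over pools that share libraries and depth.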

How the data were processed

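Frozen mouse livers were measured by droplet single-nucleus RNA-seq. The authors deposited raw UMI counts per gene and nucleus barcode for each of 4 libraries, made with Cell Ranger on mm10 with human c-MET and CTNNB1 added (the study's methods, the submitters' notes); Seurat 5 is named in the submitters' processing notes. Groups were taken from the titles.

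Nuclei with 200 to 7000 genes and at most 21% mitochondrial UMIs were kept. A type needed at least 3 UMIs over at least 2 genes of its marker list and a hepatocyte-list share under 50% of the library's median; nuclei passing several gates were left out, which stood in for doublet removal, and no doublet caller was run. Receptor UMIs were summed per type and library and given as CPM, with exact Poisson and binomial (Clopper-Pearson) 95% intervals, which cover counting error only, as do limits of 3 UMIs for a count of 0. Genes compared had at least 20 CPM in 1 library and 50 UMIs over the libraries compared; a call was a difference past 2-fold on log2(CPM + 5), in all pairs or libraries where there were several. For type order, at least 20 nuclei were required and for ratios at least 10, both set after nuclei were counted.

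The receptors and all lists were chosen with earlier results of these data known. Named genes were the 10 receptors, for each the 3 genes with the highest correlation over pools (1 of them, for Clec4g, is not reported here), the 2 genes of each wider list highest in mean CPM in either type, and the transgenes; genes that make up a count past 2-fold were named after their values were seen, as were the patterns of Marco, Lyve1 and Msr1 by zone, the motifs and the promoters shown. Nuclei were typed in 8 ways in all, and the planned gate stayed the main one although its hepatocyte limit removed most sinusoidal nuclei of the CD libraries. The others included Louvain clusters within each library (2000 variable genes, 30 components, 20 neighbours, resolution 2). The limit that a cluster's summed marker list be raised 10-fold was added after a first listing of clusters and after receptor levels by gate had been seen, and both namings were run. The gate without the hepatocyte limit and the scaling to a type's own marker list were also added after the data were seen, as were the ratio over all nuclei and the exchange of the CD labels. TMM factors (edgeR 4.0.16) and size factors (DESeq2 1.42.0) were used only to rescale. Contrasts were tested on simulated data. Python 3.11.15, scipy 1.17.1 and igraph 0.11.9 were used. Gene positions are from GENCODE on GRCm38, the same build as mm10.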

Additional observations from a re-analysis of the deposited data

Results flagged for a closer look

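The library labelled CD control held 100 UMIs of the human transgenes, above the 0 of the other library labelled control, which flagged it as a signal under a control label.

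3 receptors moved in opposite directions by label on the 2 diets, with counting intervals on either side of 0, and the difference between diets was not tested over samples. Stab2 in sinusoidal endothelial nuclei was 0.38 higher on the log2 scale in the library labelled oncogene on LPD and stood at -1.13 on CD. Mrc1 in the same nuclei stood at 0.45 on LPD and at -1.09 on CD. Timd4 in Kupffer nuclei stood at 0.52 on LPD and at -1.04 on CD. With the labels of the CD pair exchanged, as the transgene counts would have them, the CD values would be 1.13, 1.09 and 1.04. These have the same sign as on LPD, so the opposition would be gone. The 3 were picked for opposite signs, so any exchange would bring this about, whichever labels are right. Marco in Kupffer nuclei, at 5.29 on LPD and 5.50 on CD as labelled, would be opposed after it. The CD pair of Marco did not pass the filter. Under stricter limits on nuclei the CD value of Timd4 turned to 0.19 as labelled. Each CD value rests on 23 to 56 nuclei a library, the stricter one of Timd4 on 13 and 18. All rest on the labels of the pair that the transgene counts go against.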

How the results depend on the processing

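No paired analysis was possible because the groups compared share only 1 replicate number. Of 247 values for the main comparisons under alternatives, 202 stayed within their limits and 45 moved; of 1755 for single receptors 1272 stayed, 461 moved and 22 called differences reversed. Counting uncalled ones, 88 of 1075 recomputed log2 differences had another sign. The causes were not tested. By clusters, LPD control over CD control in sinusoidal endothelial nuclei reversed to -0.62 for Stab2, -0.64 for Mrc1, -0.39 for Clec4g and -0.87 for Msr1, and LPD oncogene over CD control to -0.15 for Msr1. Per own list in these nuclei, LPD control over CD control reversed to -0.27 (Stab2), -0.70 (Mrc1), -0.29 (Clec4g), -0.07 (Fcgr2b) and -0.35 (Msr1), LPD oncogene over CD control to -0.08, -0.45, -0.13, -0.69 and -0.22 in the same order, LPD control over CD oncogene to -0.14 (Stab1), -0.40 (Mrc1) and -1.56 (Msr1), and LPD oncogene over CD oncogene to -0.29, -0.15 and -1.43 in that order. Timd4 between the CD labels in Kupffer nuclei reversed to 0.19 with stricter nuclei. The mean of Mrc1 in sinusoidal endothelial over Kupffer nuclei, not called, went from -0.63 to 0.24 by clusters. The counts of receptors below are given without the share of all genes called under each setting, except where it stands above. They show how far a count depends on the setting and cannot be read as results about the receptors. Of receptors higher in sinusoidal endothelial than in Kupffer nuclei, 2 in place of 4 were left with a gate of 2 UMIs. The 6 receptors higher in LPD in sinusoidal endothelial nuclei became 0 by clusters, 2 by clusters as first named (Stab1, Fcgr2b), 1 with the mean of each nucleus's CPM and 0 per own marker list. Between the CD labels in these nuclei, the count of 2 lower receptors became 1 with stricter nuclei, 6 by clusters, 4 by clusters as first named, 5 without the hepatocyte limit, 0 with mean CPM, 1 with DESeq2 factors, 5 with no CPM filter and 0 per own list, and the 0 higher became 2 with no filter. The 1 receptor higher in LPD in Kupffer nuclei became 0 with gates of 2 or 5 UMIs, stricter nuclei, no hepatocyte limit, mean CPM, TMM or DESeq2 factors or the own list, 4 by clusters, 2 by clusters as first named and 2 with no filter. Between the CD labels in Kupffer nuclei, the 3 lower became 0 with a gate of 5 UMIs or stricter nuclei and 1 by either cluster naming or the own list, and the 0 higher became 1 by either naming and 3 with no filter; on LPD the 0 lower became 1 with no filter. The count of receptors higher in periportal nuclei, 0 by gate, became 1 (Msr1) with a hepatocyte limit of 25% of the median, with stricter nuclei and by either cluster naming, and ranged from 0 to 1 when 1 library was left out (1 without CD control). Leaving out 1 library kept the counts of receptors higher in sinusoidal endothelial (4) and in Kupffer nuclei (2). The share of Clec4f-positive Kupffer nuclei with Timd4 moved in CD oncogene from 64.7% to 32.9% by either cluster naming and to 25% thinned to 1000 UMIs, in LPD control from 34.9% to 17.6% thinned to 500, and in LPD oncogene from 44.1% to 26.3% thinned to 500 and 38.3% thinned to 1000. Marco on LPD in Kupffer nuclei kept its call under all 13 alternatives run, though by gate, with 0 UMIs in LPD control, the filter fixed that call. By clusters, with 5 Marco UMIs in LPD control and 175 in LPD oncogene, it again passed the filter only through LPD oncogene. The alternatives use the same pair of libraries and are not separate support. The hepatocyte limit of 25% was not run for results with CD libraries other than zones, nor Timd4 thinned to 500 in CD oncogene, because under 10 nuclei were left. The CD nuclei left by the gate limit each CD value.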
